A study of Homo sapiens with 6 samples.

Results

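The sirtuins are the 7 genes SIRT1 to SIRT7, taken by symbol from the 60504 genes of an RNA-seq table. They encode NAD+-dependent deacylases, enzymes that remove acetyl and other acyl groups from lysine and release nicotinamide. SIRT1, SIRT6 and SIRT7 act mainly in the nucleus, SIRT2 mainly in the cytosol on tubulin and other proteins, and SIRT3, SIRT4 and SIRT5 in mitochondria. Because each reaction uses up NAD+, the enzymes that make NAD+ and the other enzymes that break it down set the conditions under which sirtuins work. HDAC8 belongs to the other large class of lysine deacetylases, which use zinc and no NAD+.

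The data came from WM164, a human melanoma cell line with a BRAFV600E mutation in both groups. EV cells carried an empty expression vector and HDAC8 cells an HDAC8 expression vector. Per the methods of the study, plasmids were introduced by Lipofectamine and the cells were kept in hygromycin, and whether each line was 1 clone or a pool is not given in the sources used here. Each group had 3 libraries, numbered as biological replicates in the labels, and nothing says that they came from separate transfections, so p-values measure the spread between these libraries. The comparison asked whether sirtuin transcripts, and those of the genes around them, differed between the 2 groups.

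Total counts ran from 34741083 to 42041462 per library. Of 7 melanocytic markers, PMEL, MLANA, TYR and DCT were called lower in HDAC8, and MITF, SOX10 and TYRP1 were not called. MITF and SOX10 had at least 9685.5 normalized counts in every library, MLANA went from 8664.7 ± 366.7 in EV to 303.1 ± 67.8 in HDAC8, and TYRP1 was at 62.9 or less throughout. The summed level of the 7, most of it PMEL, was 243731.8 to 327424.8 in EV and 136370.3 to 181414.9 in HDAC8. Of 10 markers of leukocytes, endothelium, keratinocytes and fibroblasts, CDH5, DCN and EPCAM were at 0 in all 6 libraries and PTPRC had 3 counts in HDAC8 1 alone, while the T cell gene CD3E was at 0 in EV and at 78.7, 91.1 and 50.1 normalized counts in HDAC8, at least 24.7-fold higher. CD68, a macrophage marker, rose from 2751.4 ± 513.6 to 5219.4 ± 968.3 (adjusted p = 3.13e-05 by DESeq2), and LUM, of fibroblasts, had 2462.1 ± 233.9 and 1629.4 ± 553.3 (adjusted p = 0.0778 by DESeq2). KRT5, KRT14 and PECAM1 were at 63.0 normalized counts or less. The summed level of the 10 was 4989.0 to 5561.2 in EV and 5379.8 to 7871.1 in HDAC8, and the part of these markers in the sirtuin values was not tested. The transcript of the vector's gene had 383.8, 404.4 and 478.8 normalized counts in EV and 484.8, 445.5 and 473.7 in HDAC8, the groups overlapped, and the difference did not pass the test (log2 fold change 0.15 with an SE of 0.28, adjusted p = 0.856 by DESeq2). The 95% interval of that log2 fold change, from -0.41 to 0.7, includes a rise of called size. This transcript thus does not tell the groups apart, and directions below are those of libraries labelled HDAC8 against EV. The study also probed HDAC8 protein by immunoblot in melanoma cells given either vector, and these data hold no protein values.

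A normalized count is an expected count divided by the DESeq2 size factor of its library. To be called, a gene needed a log2 fold change of 0.58 or more in size together with a DESeq2 adjusted p below 0.05. None of the 7 sirtuins was called, against 11.0% of the 21021 genes with an adjusted p. All 7 passed the filter of 10 counts in total and all had an adjusted p. At an unadjusted p under 0.05 with the same fold minimum, 1 sirtuin (SIRT6) would have been called, against 14.2% of all genes tested. By edgeR and limma-voom, 0 sirtuins were called. The median log2 fold change of the 7 was 0.02, and that of all genes tested was -0.00012. SIRT1, SIRT2, SIRT5 and SIRT6 had a log2 fold change above 0, and SIRT3, SIRT4 and SIRT7 one below 0, of which only that of SIRT6 had an interval that did not include 0. Of 97 log2 fold changes that the 7 genes took under other tests, scalings, filters or a block or with a library left out, 17 had the opposite sign, all of them for SIRT1, SIRT2, SIRT3, SIRT4 or SIRT7.

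Some sirtuins start beside a neighbour that runs the other way, and the sequence between the starts is shown here because such a start region belongs to both genes. SIRT6 lies at chr19:4174109-4182566 on the minus strand, and its start is 123 bases from that of ANKRD24. SIRT3 lies at chr11:215030-236931 on the minus strand, 35 bases from the start of the proteasome subunit gene PSMD13. The starts of SIRT2 (chr19:38878555-38899862, minus strand) and the NF-kappa-B inhibitor gene NFKBIB are 162 bases apart, and there the gene spans overlap. Positions are those of GENCODE 44 on GRCh38. The 300 bases around the starts of SIRT6 (chr19:4182514-4182813) and SIRT3 (chr11:236882-237181) are printed from RefSeq GRCh38.p14 in the direction of the sirtuin, with the stretch from one start to the other in capitals.
SIRT6: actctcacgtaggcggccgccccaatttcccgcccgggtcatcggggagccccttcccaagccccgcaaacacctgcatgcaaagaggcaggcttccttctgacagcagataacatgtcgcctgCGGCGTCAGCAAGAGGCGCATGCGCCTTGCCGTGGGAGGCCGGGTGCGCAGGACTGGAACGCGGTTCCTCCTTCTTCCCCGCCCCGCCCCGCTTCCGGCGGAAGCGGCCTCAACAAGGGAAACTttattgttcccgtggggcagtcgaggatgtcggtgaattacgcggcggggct
SIRT3: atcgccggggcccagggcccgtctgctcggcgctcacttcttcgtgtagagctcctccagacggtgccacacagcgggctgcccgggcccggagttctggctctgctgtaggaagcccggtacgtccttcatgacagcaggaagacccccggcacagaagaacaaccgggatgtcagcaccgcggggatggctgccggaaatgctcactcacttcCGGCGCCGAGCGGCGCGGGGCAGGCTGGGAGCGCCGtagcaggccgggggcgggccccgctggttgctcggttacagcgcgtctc
These windows hold 65.0% and 69.3% G and C.

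Promoter windows of 6 of the 7 sirtuins were in the RefSeq table, in 9 windows, and SIRT7 had none, so it was not searched. Each was searched on both strands for the AP-1 site TGANTCA, the E-box CACGTG and the related CATGTG that melanocyte factors can bind, and no match of one can be a match of another. Of the 6 sirtuins searched, only SIRT1 (chr10:67884656-67918390, plus strand) had a match, with CACGTG at positions -123 and -44 from its start. These stretches are shown with the E-box in capitals, at chr10:67884521-67884550 and chr10:67884600-67884629.
SIRT1 first: gcctccgcccgcCACGTGacccgtagtgtt
SIRT1 second: gatggggcgggtCACGTGatggggtttaaa
Of 35116 promoter windows, 7.26% held CACGTG, 7.71% TGANTCA and 11.1% CATGTG. A match describes letters and is not a binding site.

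Among the nuclear sirtuins, SIRT6, which removes acetyl groups from histone H3 at promoters and telomeres, was the only member whose groups did not overlap. SIRT6 (ENSG00000077463) had 498.1, 449.2 and 377.3 normalized counts in EV and 573.8, 793.7 and 650.1 in HDAC8. Every library labelled HDAC8 was above every EV library. Over all genes tested, 24.0% had groups that did not overlap, and 11.3% did so with HDAC8 higher. The means were 441.5 ± 60.8 and 672.5 ± 111.7 (SD, n = 3 each), a fold of 1.52 with a 95% interval from 1.05 to 2.22. The log2 fold change of 0.61 (SE 0.28) did not pass the test across all genes (DESeq2 adjusted p = 0.141). With 1 library left out at a time it ran from 0.48 to 0.71, and the adjusted p from 0.0744 to 0.447. Under the other fits the adjusted p ran from 0.0515 to 0.237.

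SIRT1, the deacetylase of FOXO factors and PGC-1 alpha, had 1089.5, 724.7 and 1151.6 normalized counts in EV and 742.2, 1114.3 and 1147.8 in HDAC8. In each group 1 library was low and the other two were close to each other, and the groups overlapped through their whole range. Between the groups, SIRT1 differed by 0.02 on the log2 scale (SE 0.26, adjusted p = 0.985 by DESeq2). Its interval, from -0.5 to 0.53, lies inside the fold minimum used for calls, so a change of called size in either direction is outside it. That depends on single libraries. The log2 fold change was -0.16 (SE 0.28) without EV replicate 2 and 0.19 (SE 0.25) without HDAC8 1, each with an interval that includes such a change.

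SIRT7, a deacetylase of the nucleolus that acts on ribosomal RNA genes, lies at chr17:81911939-81921323 on the minus strand. Its values were 1083.2, 1020.8 and 1002.9 normalized counts in EV and 1517.8, 679.0 and 900.6 in HDAC8. The means were nearly equal, 1035.6 ± 42.2 and 1032.4 ± 434.7 (SD, n = 3 each), but the coefficient of variation was 4.07% in EV and 42.1% in HDAC8. Over 14451 genes with a mean of at least 50, the median coefficient was 15.0% in EV and 20.3% in HDAC8. HDAC8 1 was above all EV libraries, while HDAC8 2 and HDAC8 3 were below them and also apart from each other. The log2 fold change was -0.0037 (SE 0.28, adjusted p = 0.997 by DESeq2). Without HDAC8 1 it was -0.39 (adjusted p = 0.275). On the second principal component of the most variable genes the HDAC8 libraries were spread out, at 48.07, -51.8 and 11 for replicates 1, 2 and 3, against -9.74 to 2.37 in EV, and whether that plays a part in SIRT7 was not tested.

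SIRT2, the cytosolic member known for deacetylating tubulin, had 849.4, 898.4 and 498.5 normalized counts in EV and 789.2, 817.3 and 822.2 in HDAC8. Here the spread lay in EV, where replicate 3 was low, with a coefficient of variation of 29.1% in EV and 2.19% in HDAC8. All HDAC8 values lay between the lowest and the highest EV value. SIRT2 had a log2 fold change of 0.11 (SE 0.27, adjusted p = 0.897 by DESeq2), and without EV replicate 3 it was below 0, at the low end of a leave-one-out range from -0.12 to 0.26.

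SIRT3, the main mitochondrial deacetylase, had 226.5, 297.9 and 180.3 normalized counts in EV and 212.1, 219.2 and 269.0 in HDAC8. All HDAC8 values lay within the EV range. For SIRT3 the log2 fold change was -0.01 (SE 0.39, adjusted p = 0.995 by DESeq2), with an interval from -0.78 to 0.76, a fold from 0.58 to 1.7, so a change of called size in either direction is inside it.

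SIRT5 (chr6:13574227-13615158, plus strand), which removes succinyl, malonyl and glutaryl groups, had 295.7, 430.5 and 293.6 normalized counts in EV and 417.3, 450.6 and 411.6 in HDAC8. EV replicate 2 lay among the HDAC8 libraries and the other EV libraries lay below them. The spread was larger in EV, with a coefficient of variation of 23.1% against 4.94% in HDAC8. SIRT5 kept a log2 fold change above 0 with any library left out, from 0.23 to 0.53. The log2 fold change was 0.33 (SE 0.32, adjusted p = 0.631 by DESeq2). The deposited expected counts of SIRT5 were not whole in 6 of 6 libraries, whereas those of the other 6 sirtuins were whole in all. SIRT5 shares 1058 exon bases with the antisense RNA gene AL441883.1, whose expected counts were also not whole in 6 of 6 libraries. SIRT2, SIRT3, SIRT4 and SIRT7, with whole counts, also share 12 to 105 exon bases with a neighbour. What made the SIRT5 counts not whole was not tested. AL441883.1 had 53.5, 14.0 and 22.7 normalized counts in EV and 111.2, 56.3 and 22.9 in HDAC8 (log2 fold change 1.08, adjusted p = 0.565 by DESeq2). Whether strand was used in counting is not given in the sources used here, so reads of SIRT5 and its antisense partner cannot be told apart in the shared exons.

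SIRT4 (chr12:120302316-120313249, plus strand), a mitochondrial lipoamidase and ADP-ribosyltransferase, was near the limit of detection. It had 0, 27 and 25 rounded counts in EV and 0, 19 and 21 in HDAC8. A count of 0 allows up to 3.146 normalized counts in EV 1 and up to 2.565 in HDAC8 1, for counting error only. The remaining 4 libraries had 19.5 to 25.2 normalized counts. The coefficient of variation was 86.6% in EV and 87.4% in HDAC8, with replicate 1 at 0 in both. The log2 fold change of -0.24 had an SE of 1.88 (DESeq2 adjusted p = 0.974). Its interval, from -3.93 to 3.45, shows that no difference short of a very large one was detectable in these libraries.

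**Figure D1:**
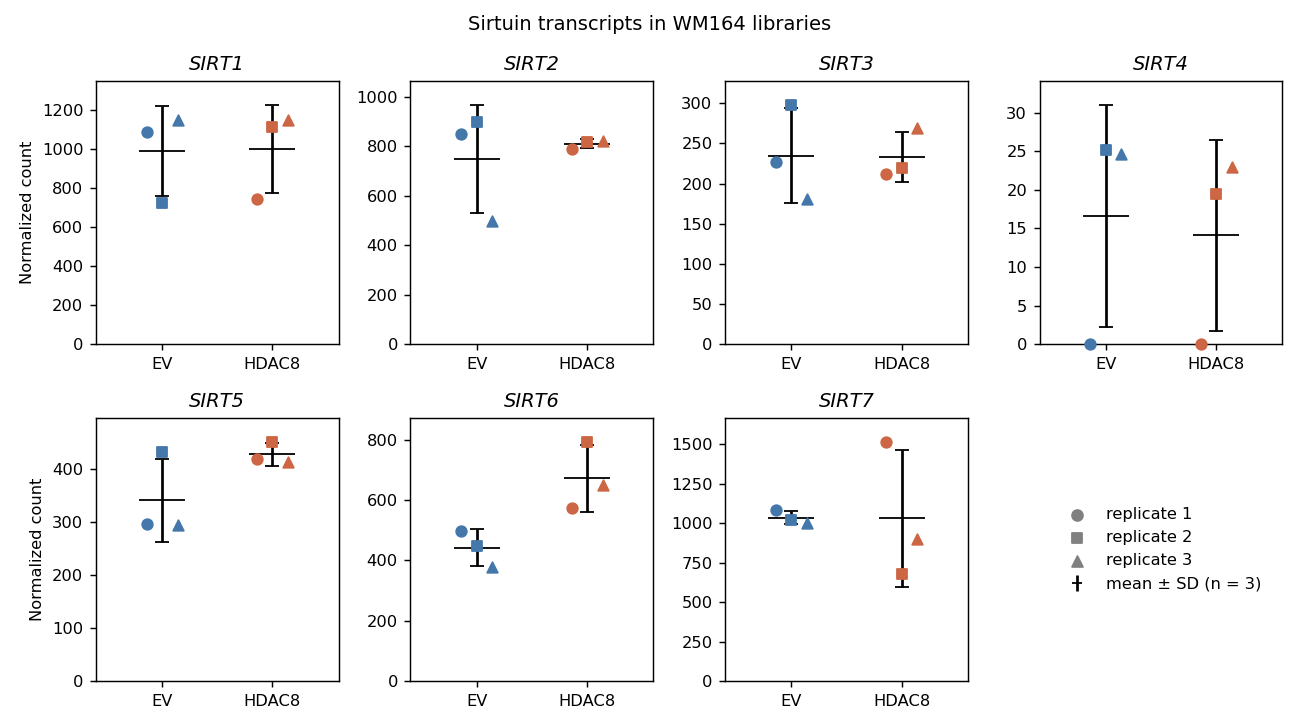
Normalized counts of the 7 sirtuins in each WM164 library, with 1 panel a gene and its own y axis from 0. Points are libraries (circle, square and triangle for replicates 1, 2 and 3), lines the mean and bars the SD of 3. SIRT6 is the 1 panel in which the groups do not overlap, and SIRT7 spreads from 679.0 to 1517.8 in HDAC8 around a tight EV group.

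**Figure D2:**
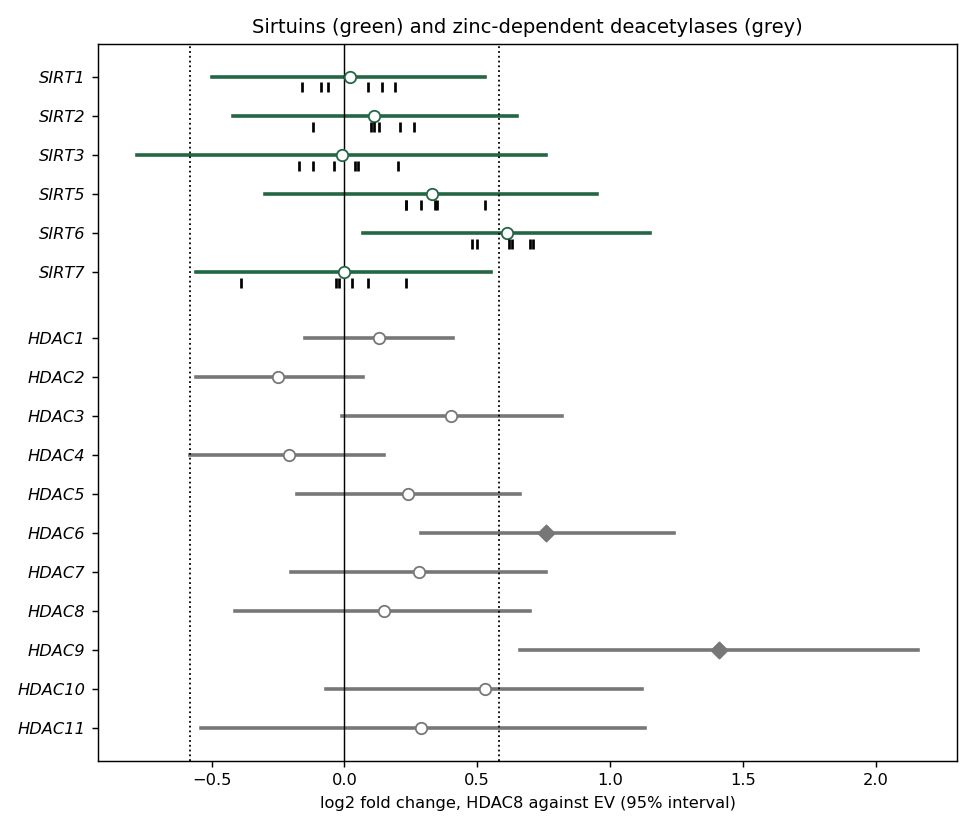
Log2 fold change, HDAC8 against EV, of 6 sirtuins (green) and 11 zinc-dependent deacetylases (grey), with the DESeq2 95% interval. Ticks under the sirtuins are the fits with 1 library left out, filled diamonds are called genes, and dotted lines mark the fold minimum of 0.58. SIRT4, with an interval from -3.93 to 3.45, is not drawn. SIRT6 is the sirtuin farthest from 0, and HDAC6 and HDAC9 are the called genes.

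Levels were compared between sirtuins per kilobase of gene length, first of merged exons. In EV, SIRT1 was highest at 217 ± 50.5 normalized counts per kilobase, then SIRT7 at 169 ± 6.88, SIRT6 at 161 ± 22.1 and SIRT2 at 121 ± 35.1 (SD, n = 3 each). SIRT3 followed at 42.3 ± 10.7, SIRT5 at 30.1 ± 6.95 and SIRT4 at 13.6 ± 11.8. The ranges of neighbours overlapped from SIRT1 down to SIRT2 and between SIRT3 and SIRT5. They did not overlap between SIRT2 and SIRT3, nor between SIRT5 and SIRT4. In HDAC8, SIRT6 had the highest mean, 245 ± 40.6 per kilobase, and its range from 209 to 289 overlapped that of SIRT1, from 163 to 251.

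The order within the upper 4 depended on the length used. Per kilobase of coding sequence in EV, SIRT7 led at 854, before SIRT2 at 565, SIRT1 at 435 and SIRT6 at 411, and SIRT5 at 286 was above SIRT3 at 173. Per kilobase of the longest transcript SIRT7 led at 301 and SIRT6 followed at 276. Under all 3 lengths the mitochondrial members had the lowest means and SIRT4 was the last. Per kilobase of coding sequence in EV, SIRT5 ranged from 247 to 362. That range overlapped those of SIRT1, from 319 to 506, and SIRT6, from 351 to 464.

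**Figure D3:**
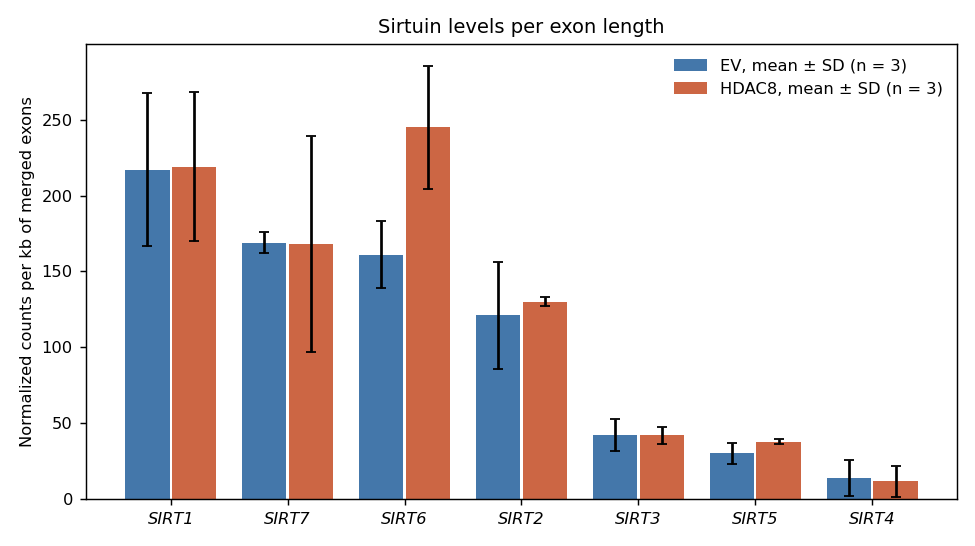
Mean normalized counts per kilobase of merged exons for each sirtuin in EV (blue) and HDAC8 (orange), with bars of SD over 3 libraries and the axis starting at 0. The nuclear and cytosolic members lie between 121 and 245, and the mitochondrial members at 42.3 or below.

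None of the divergent neighbours was called. NFKBIB had 382.5 ± 75.6 normalized counts in EV and 473.7 ± 77.3 in HDAC8 (log2 fold change 0.31, adjusted p = 0.648 by DESeq2). ANKRD24, beside SIRT6, had 91.2, 92.5 and 43.3 in EV and 146.2, 59.4 and 117.6 in HDAC8 (log2 fold change 0.51, adjusted p = 0.747 by DESeq2). PSMD13, beside SIRT3, had a log2 fold change of 0.08 (DESeq2 adjusted p = 0.914), with 1575.9 normalized counts in HDAC8 1 against 975.7 to 1156.6 in the other libraries. RIC8A, which shares 84 exon bases with SIRT3 on the opposite strand, had a log2 fold change of 0.05 (DESeq2 adjusted p = 0.96). MAFG, a small MAF transcription factor on the same strand as SIRT7 with 105 shared exon bases, had 3161.4 ± 533.1 and 2441.7 ± 614.8 (log2 fold change -0.37, adjusted p = 0.27 by DESeq2), and it was called without HDAC8 1 (log2 fold change -0.6, adjusted p = 0.00548). Near the start of SIRT7, the opposite-strand RNA AC145207.8 had at most 19.7 normalized counts in any library. SIRT4 overlaps the small RNA gene RNU6-1088P by 12 bases.

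Sirtuin activity depends on NAD+, so the genes of NAD+ supply were read beside the sirtuins. Of 23 genes of NAD+ synthesis and transport, 18 passed the filter and 17 had an adjusted p, of which 3 were higher and 1 lower in HDAC8. Over all genes, 5.57% were called higher and 5.44% lower. The median log2 fold change of the list was -0.15. IDO1, IDO2, NMNAT3, SLC25A52 and TDO2 did not pass the filter.

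QPRT, which makes the NAD+ precursor nicotinate mononucleotide from quinolinate, the product of tryptophan breakdown, had 817.9, 911.5 and 878.7 normalized counts in EV and 26.5, 23.6 and 63.2 in HDAC8. It fell 23.2-fold (log2 fold change -4.54 with an SE of 0.38, adjusted p = 2.56e-30 by DESeq2). NT5E, the surface nucleotidase CD73 that splits phosphate from nucleotides, including the NAD+ precursor NMN, had 803.2, 684.6 and 631.5 in EV and 4236.9, 5979.0 and 6435.7 in HDAC8. It rose 7.86-fold (log2 fold change 2.97 with an SE of 0.19, adjusted p = 1.24e-50 by DESeq2). For both genes the groups were far apart in every library.

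NAPRT, which starts NAD+ synthesis from nicotinic acid, rose with a log2 fold change of 0.95 (SE 0.27, adjusted p = 0.00672 by DESeq2). HDAC8 1 had 2896.2 normalized counts and the other HDAC8 libraries 1485.0 and 1487.5, against 807.8 to 1244.0 in EV. The call was lost without HDAC8 1 or without EV replicate 3. NADK2, the mitochondrial NAD+ kinase, was called higher (log2 fold change 0.69, adjusted p = 0.0395 by DESeq2). That call was lost on leaving out any library but HDAC8 1, by limma-voom, and with replicate number as a block. NAMPT, the rate-limiting enzyme that remakes NAD+ from the nicotinamide that sirtuins release, had 4777.7 ± 436.0 in EV and 3989.7 ± 653.6 in HDAC8 (log2 fold change -0.26, adjusted p = 0.364 by DESeq2). NMNAT1, the nuclear enzyme that makes NAD+ from NMN, had 401.7 ± 51.6 and 534.0 ± 68.0 (log2 fold change 0.41, adjusted p = 0.43 by DESeq2).

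Of 19 other genes of NAD+ use and nicotinamide clearance, 17 passed the filter and 16 had an adjusted p. Of these, 2 were higher and 1 lower, against 5.57% and 5.44% of all genes, and the median log2 fold change was -0.07. No list was tested against these shares. NNMT, which methylates nicotinamide and so removes it from reuse, had 98.6, 51.4 and 8.9 normalized counts in EV and 0 in all 3 HDAC8 libraries. Against a floor of 3 counts per library it was at least 17.8-fold lower (DESeq2 adjusted p = 9.37e-05), and without EV replicate 1 at least 10.1-fold. The EV values differed among themselves by more than for most genes.

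SARM1, an NAD+ hydrolase best known from axons, had 385.9, 519.3 and 425.6 normalized counts in EV and 1552.8, 697.4 and 857.0 in HDAC8. It rose with a log2 fold change of 1.22 (SE 0.31, adjusted p = 0.00168 by DESeq2), and HDAC8 1 was again the highest library. TIPARP, a mono-ADP-ribosyltransferase, was called higher (log2 fold change 0.6, adjusted p = 0.0379 by DESeq2). This call, too, was lost on leaving out any library but HDAC8 1, by limma-voom, and with replicate number as a block. PARP1, the main consumer of nuclear NAD+ after DNA damage, had 8663.3 ± 692.9 and 8263.5 ± 613.0 (log2 fold change -0.07, adjusted p = 0.864 by DESeq2).

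Of 11 genes known as regulators of sirtuins, 2 were higher and 1 lower in HDAC8, against 5.57% and 5.44% of all genes. The median log2 fold change of the list was 0.19. CCAR2 (DBC1), a protein that binds and inhibits SIRT1, had 3301.0, 3530.3 and 2751.5 normalized counts in EV and 5296.4, 4356.7 and 5022.2 in HDAC8. It rose with a log2 fold change of 0.61 (SE 0.16, adjusted p = 0.00212 by DESeq2). USP22, a deubiquitinase that stabilizes SIRT1, rose from 17235.8 ± 1909.9 to 25882.5 ± 2025.7 (log2 fold change 0.59 with an SE of 0.13, adjusted p = 2.56e-04 by DESeq2). Both lie close to the fold minimum: the call for CCAR2 was lost without EV replicate 3 or HDAC8 1, and that for USP22 without EV replicate 1, EV replicate 3 or HDAC8 1. PPARGC1A (PGC-1 alpha) is a coactivator that drives SIRT3 expression and is itself a substrate of SIRT1. Its transcript fell from 5035.5 ± 238.9 to 3084.7 ± 339.7 (log2 fold change -0.71 with an SE of 0.15, adjusted p = 7.18e-05 by DESeq2). SIRT3 was not called, and its interval, from -0.78 to 0.76, includes a fall of that size. Whether the level of PPARGC1A bears on that of SIRT3 was not tested.

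Of 28 nuclear and cytosolic substrates, all with an adjusted p, 3 were higher and 4 lower, against 5.57% and 5.44% of all genes. The median log2 fold change of the list was -0.07. MYBBP1A, a nucleolar protein, rose from 5349.9 ± 822.1 to 10333.1 ± 1822.9 (log2 fold change 0.95, adjusted p = 6.81e-07 by DESeq2). SREBF1, a lipid synthesis factor, rose from 8403.4 ± 2270.3 to 13454.7 ± 2350.8 (log2 fold change 0.68, adjusted p = 0.0044 by DESeq2), and that call was lost without EV replicate 1, EV replicate 3 or HDAC8 1.

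The tubulin TUBA1A fell from 3858.8 ± 475.7 to 2556.7 ± 214.3 (log2 fold change -0.59, adjusted p = 0.00399 by DESeq2), a call lost without EV replicate 2, HDAC8 2 or HDAC8 3, and with size factors from total counts. ACSS2, the cytosolic acetyl-CoA synthetase that SIRT1 activates, was named after its values were seen, outside the rule for names, and fell from 1707.2 ± 123.0 to 1094.7 ± 112.4 (DESeq2 adjusted p = 0.00967). PPARGC1A, above, is also among the 4. The acetyltransferase EP300, which SIRT2 can deacetylate, had 19052.0 ± 2010.4 and 18397.0 ± 1162.4 (log2 fold change -0.05 with an SE of 0.13, adjusted p = 0.907 by DESeq2).

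Of 25 mitochondrial substrates, 23 passed the filter and 22 had an adjusted p. Of these, 1 was higher and 4 lower, against 5.57% and 5.44% of all genes, and the median log2 fold change was -0.23. CPS1, the first enzyme of the urea cycle and the best known SIRT5 substrate, had 1353.7, 1224.4 and 1398.9 normalized counts in EV and 210.3, 268.3 and 229.8 in HDAC8. It fell with a log2 fold change of -2.49 (SE 0.24, adjusted p = 1.31e-23 by DESeq2). The SIRT3 substrate SOD2, the manganese superoxide dismutase, fell from 2627.9 ± 271.0 to 1341.8 ± 164.6 (log2 fold change -0.97, adjusted p = 4.41e-06 by DESeq2).

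IDH2, an NADPH-making dehydrogenase that SIRT3 activates, fell from 1438.6 ± 145.5 to 764.5 ± 84.3 (log2 fold change -0.91, adjusted p = 3.02e-04 by DESeq2). SLC25A4, an ADP/ATP carrier, fell from 2443.9 ± 181.3 to 1562.1 ± 93.8 (log2 fold change -0.65, adjusted p = 0.0021 by DESeq2). SDHA, a subunit of respiratory complex II, rose from 4842.2 ± 614.8 to 7642.6 ± 1965.3 (log2 fold change 0.66, adjusted p = 0.00531 by DESeq2), and its call was lost without EV replicate 1, EV replicate 3 or HDAC8 1. GLUD1, the target of SIRT4, had 3873.3 ± 290.4 and 3316.7 ± 203.5 (log2 fold change -0.22, adjusted p = 0.4 by DESeq2). Transcripts encoded by the mitochondrial genome, which are not in this list, took 9.66% to 12.8% of the counts in EV. They took 4.46% in HDAC8 1, 7.94% in HDAC8 2 and 7.63% in HDAC8 3. Their part in these values was not tested. Leaving those genes out of the fit kept the calls for CPS1, SOD2, IDH2 and SLC25A4. That fit only drops their rows, so it cannot decide the question.

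Of the 11 zinc-dependent deacetylases, the class to which HDAC8 belongs, 2 were higher and 0 lower, against 5.57% and 5.44% of all genes. The median log2 fold change of the list was 0.28. HDAC6, which like SIRT2 deacetylates tubulin, had 1158.7, 1167.4 and 784.2 normalized counts in EV and 2240.3, 1398.0 and 1638.9 in HDAC8. It rose with a log2 fold change of 0.76 (SE 0.24, adjusted p = 0.0168 by DESeq2), a call lost without EV replicate 3, HDAC8 1 or HDAC8 3. HDAC9 rose from 169.0 ± 20.0 to 449.1 ± 154.7 (log2 fold change 1.41 with an SE of 0.38, adjusted p = 0.00357 by DESeq2), a call lost without HDAC8 3. That 2 of 11 members were called here and 0 of 7 among the sirtuins was not tested as a difference.

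**Figure D4:**
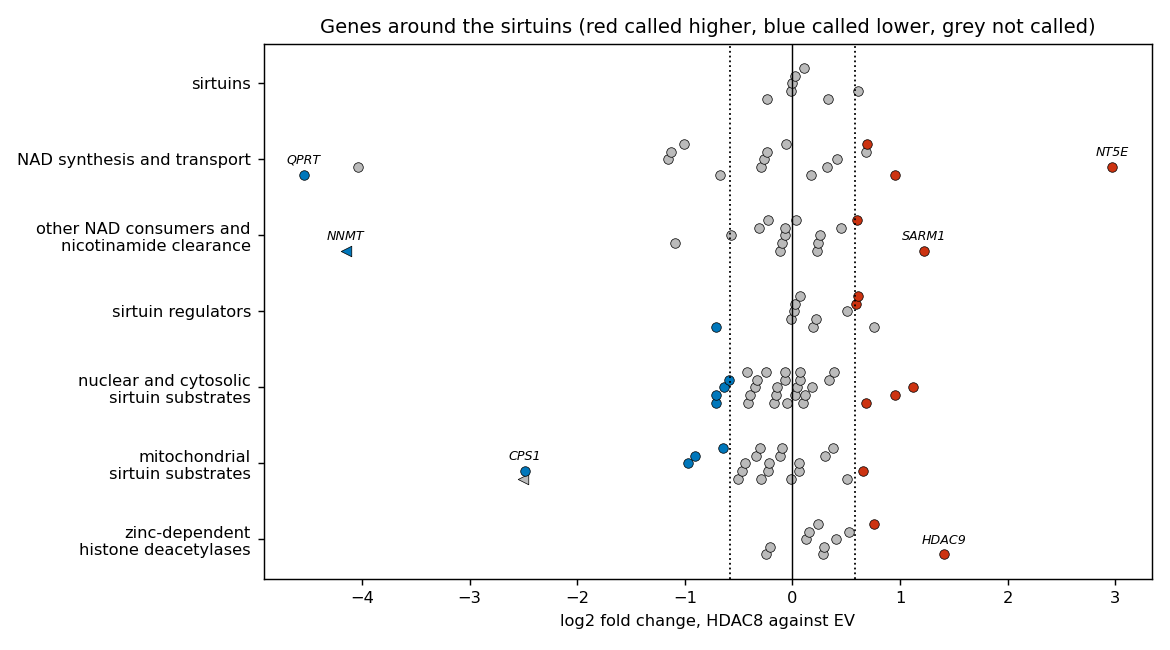
Log2 fold change, HDAC8 against EV, of each gene past the filter with a value, by list. Red points were called higher, blue points lower and grey points not called, triangles are genes drawn at a bound against the floor of 3 counts, and dotted lines mark 0.58 in size. The sirtuins cluster around 0 with none called, and QPRT, NNMT, CPS1 and NT5E lie farthest out among called genes. Vertical offsets only separate the points.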

How the data were processed

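Per the labels and methods, the authors used Trimmomatic for trimming, STAR for alignment to transcripts and RSEM for quantification. What they deposited are expected counts per gene, unscaled between libraries. Genome build, annotation and strand handling are not given in the sources used here. The labels and the methods name different RNA extraction kits. Expected counts were rounded to whole numbers. HDAC8 was compared with EV in all 6 libraries with DESeq2 1.42.0 in R 4.3.3 (two-sided Wald test, no covariates) on the 26162 genes whose counts summed to 10 or more, and p-values were adjusted over all genes by the method of Benjamini and Hochberg. DESeq2 gave no adjusted p for 5141 genes, which were left out of counts of calls. Size factors ran from 0.918 to 1.17. Intervals are at the 95% level. The reads carry no molecular identifiers, so floors cover counting error only.

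Positions and lengths came from GENCODE 44, in which 56558 identifiers were found. Genes were named by rule: all sirtuins, called members of each list (at most 6 by smallest adjusted p), 11 fixed genes, and genes that overlap a sirtuin or start within 2 kb of its start. Of the genes so chosen, 2 are counted in their list but not reported here. Members and lists were chosen with earlier results of these data known. Alternatives were edgeR 4.0.16, limma 3.58.1, other size factors, filters and thresholds, a replicate block and each library left out in turn. Only the main DESeq2 fit was run on simulated counts, modelled on genes with a mean of at least 50, which leaves out SIRT4. Its outcome is not reported here, and the alternatives were not run on simulated counts. Pairs of libraries of a group differed by more than sampling noise.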

Additional observations from a re-analysis of the deposited data

How the results depend on the processing

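The number of sirtuins called was 0 under every alternative and 0 with any library left out (0 to 0), except 1 at an unadjusted p under 0.05. Over all genes, 2313 were called, against 583 by a test against the fold minimum, 3695 at an unadjusted p under 0.05, and 1653 to 2485 with 1 library left out. Across the 6 lists around the sirtuins, 23 genes were called, 4 by the test against the fold minimum (NT5E, QPRT, NNMT and CPS1), and 15 to 24 with 1 library left out, the lowest without EV replicate 3. Of 22 genes called under the rule for names, beside the sirtuins, 12 were called in every fit with a library left out.

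Several sirtuin values near 0 changed sign. With size factors from total counts the log2 fold change was 0.03 for SIRT3 and 0.05 for SIRT7, and with upper quartiles 0.004 for SIRT7. With 1 library left out, log2 fold changes ran from -0.16 to 0.19 for SIRT1, -0.12 to 0.26 for SIRT2, -0.17 to 0.2 for SIRT3, -0.83 to 0.35 for SIRT4 and -0.39 to 0.23 for SIRT7, and among neighbours and substrates from -5.31 to 1.06 for AC145207.8, -0.17 to 0.21 for PSMD13, -0.13 to 0.21 for RIC8A and -0.13 to 0.01 for EP300. The cause was not tested. SIRT5 and SIRT6 kept their direction under all alternatives.

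Replicate numbers are shared by the groups but same-numbered libraries did not deviate together (correlations -0.0244, -0.0539 and 0.03). With a replicate block 2153 genes were called over all and 21 in the lists, 0 sirtuins were called, and the log2 fold change of SIRT3 was 0.01. Among named genes the block ended the calls for NADK2 (adjusted p = 0.101 by DESeq2) and TIPARP (adjusted p = 0.102 by DESeq2) and no other call. At 3 libraries a group, the intervals of SIRT2, SIRT3, SIRT4, SIRT5 and SIRT6 include changes of called size. Those of SIRT1 and SIRT7 do not, but for both this depends on single libraries. Without HDAC8 1 the log2 fold change of SIRT7 was -0.39 (SE 0.23), with an interval that includes such a change.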

Other observations

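The genes whose level was most like that of SIRT6 were described by Pearson correlation of log2(normalized count + 0.5) over the 6 libraries, among 14445 genes with a mean of at least 50. FAM122B (r = 0.9931), MAOB (r = 0.9856) and ZW10 (r = 0.9838) came first, and 294 genes had r above 0.9. The points share 6 libraries in 2 groups, so genes that differ between the groups resemble each other. FAM122B had 1139.8, 1070.3 and 815.7 normalized counts in EV and 1270.6, 1823.0 and 1509.3 in HDAC8, and its log2 fold change of 0.61 did not pass the test (DESeq2 adjusted p = 0.0542). MAOB, a mitochondrial amine oxidase, rose from 37.7 ± 12.7 to 218.9 ± 104.6 (SD, n = 3 each, DESeq2 adjusted p = 3.18e-04).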
